A study of Homo sapiens with 6 samples.

Results

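The genes described here are 54 genes of mitosis, the kinetochore and the spindle, chosen by name and matched to the gene symbols of the series' table. All 54 were found among the 16617 genes listed there. The cells were T3M4, an established human pancreatic ductal adenocarcinoma line grown in DMEM with serum. Messenger RNA was sequenced in 2 groups of 3 libraries, from cells with a control guide RNA (sgControl, the label's wild type) and from cells with a guide RNA against METTL13 (sgMETTL13, the label's METTL13 knockdown). The labels do not say whether a group was a clone or a pool, or whether its 3 libraries came from separate cultures. The series set these libraries beside protein measurements under the same treatment, which were not used here, and the question put to the 54 genes is whether their transcripts differed between the guides.

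Mitosis is driven by CDK1 bound to cyclin B, which is switched on by CDC25 phosphatases and reinforced by PLK1 and the Aurora kinases. Chromosomes attach to spindle microtubules through kinetochores built on CENPA chromatin. The spindle checkpoint holds back CDC20 and the anaphase-promoting complex until every chromosome is attached, after which separase is set free from securin and the sister chromatids part. Many of these genes are transcribed late in the cell cycle under FOXM1, B-Myb (MYBL2) and the MuvB complex. The MuvB complex binds a short promoter element called the CHR, often placed near CCAAT boxes that bind NF-Y. METTL13 is a methyltransferase that acts on eEF1A, the factor that brings aminoacyl-tRNA to the ribosome.

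The promoter letters show what the genes have in common before any measurement is considered. Windows of 300 bases, from 250 before to 50 after a transcription start, were found in the RefSeq promoter table (GRCh38.p14) for 46 of the 54 genes, as 58 windows because some genes have several starts. AURKA, BIRC5, BUB3, CENPH, FOXM1, TPX2, TTK and UBE2C were not among them. The CHR was searched as TTTGAA or TTCGAA on both strands. It occurred in 37 of the 58 windows (63.8%), against 16.4% of all 35116 windows in the table. Those windows belong to 27305 genes and are not limited to the 16617 genes measured in these cells. The letters CCAAT, searched on both strands, occurred in 39 windows (67.2%) against 34.6% of all windows. At least 2 CCAAT copies were found in 22 of the windows (37.9%), against 10.8% of all windows. Both motifs occurred together in 28 windows (48.3%) against 6.38%. Windows of 1 gene can overlap, so they are not independent, and a match is a run of letters and not a measured binding site.

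Stretches upstream of the start are printed for 5 genes on which the results below turn. They are CENPF, MKI67, ASPM and KIF20B, 4 of the 6 lower genes with an unadjusted p under 0.05, and CDC20. CDC20 is shown as an abundant gene with little difference between the groups. The remaining lower genes, NUF2 and NCAPD2, are not printed. They have 0 bases free of an annotated exon in the 250 before the start. Each printed stretch runs 5′ to 3′ on the gene's own strand and holds no exon annotated by GENCODE 29. Capitals mark CHR letters (TTTGAA or TTCGAA, on either strand) and CCAAT boxes (the letters CCAAT on either strand).
CENPF, chr1:214603045-214603194, plus strand: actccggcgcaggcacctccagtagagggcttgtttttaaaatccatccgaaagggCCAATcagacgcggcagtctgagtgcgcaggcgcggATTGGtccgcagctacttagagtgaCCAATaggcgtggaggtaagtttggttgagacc
MKI67, chr10:128126424-128126573, minus strand: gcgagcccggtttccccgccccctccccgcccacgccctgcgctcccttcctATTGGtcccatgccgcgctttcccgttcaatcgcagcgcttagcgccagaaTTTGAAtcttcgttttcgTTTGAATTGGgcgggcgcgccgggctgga
ASPM, chr1:197146695-197146819, minus strand: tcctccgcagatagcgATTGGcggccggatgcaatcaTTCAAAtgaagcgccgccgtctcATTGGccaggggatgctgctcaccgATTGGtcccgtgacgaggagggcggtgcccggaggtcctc
KIF20B, chr10:89701440-89701589, plus strand: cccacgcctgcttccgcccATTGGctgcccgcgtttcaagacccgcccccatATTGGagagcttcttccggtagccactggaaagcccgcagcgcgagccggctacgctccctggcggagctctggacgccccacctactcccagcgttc
CDC20, chr1:43358831-43358954, plus strand: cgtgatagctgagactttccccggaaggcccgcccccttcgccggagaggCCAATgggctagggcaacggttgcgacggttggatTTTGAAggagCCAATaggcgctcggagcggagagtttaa

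The CENPF stretch holds 3 CCAAT boxes, which begin at positions -94, -58 and -33 from the start site, and 0 CHR runs. The MKI67 stretch holds 2 CHR runs, at -47 and -29, and 2 CCAAT boxes, at -98 and -24, of which the last overlaps the CHR run before it. ASPM has 1 CHR run at -113 and 3 CCAAT boxes, KIF20B has 2 CCAAT boxes and 0 CHR runs in these bases, and CDC20 has 1 CHR run at -65 and 2 CCAAT boxes. Among the genes with a window, the median log2 fold change was -0.09 in the 34 with a CHR run and -0.08 in the 12 without. These 2 sets were made over whole windows, with exon bases and the 50 bases after the start. A gene with 0 CHR runs in its printed stretch can therefore have a run elsewhere in its window.

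The targeted gene was lower, as the labels have it. METTL13 averaged 39.9 TPM in sgControl and 5.63 TPM in sgMETTL13 in the authors' deposited table, with 14.1% of the reads left. The same source gives averages over the 3 libraries of a group and 1 comparison, so no value per library, and no overlap between groups, can be shown. All 8 epithelial and ductal markers fixed for the line were present, from 53.7 to 2107 TPM in sgControl in the authors' deposited table. One of them, MUC1, was called lower in the authors' deposited table, at -0.46 on the log2 scale. Markers of fibroblasts summed to 17.2 TPM in sgControl and 17.3 TPM in sgMETTL13 in the authors' deposited table, endothelial markers to 2.04 and 1.44 TPM, acinar markers to 0.81 and 1.96 TPM, and the leukocyte marker CD14 was at 0.307 and 0.313 TPM. COL1A1 held most of the fibroblast sum, at 13.99 TPM in sgControl and 14.17 TPM in sgMETTL13 in the authors' deposited table. LUM followed at 2.87 and 2.88 TPM. COL1A2 and CPA1 were at 0 TPM in sgControl in the authors' deposited table, whereas the acinar marker PRSS1 was at 0.81 and 1.84 TPM. Of the markers named, 1 of 4 for leukocytes, 2 of 3 for acinar cells and 0 of 2 for islets were listed there. Estimated reads, averaged per group, came to 15240866 and 15247500 in the 2 groups of the authors' deposited table.

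Most of the 54 transcripts differed little between the guides, and 1 of them, CENPF, passed the test, as a fall. A gene counts as changed where its adjusted p in the authors' deposited table was under 0.05. Of the 54 genes 1 was lower (1.85%) and 0 were higher by that rule, beside 1.08% of all genes lower and 2.73% higher in the authors' deposited table. Among the 10064 genes within the same range of mean reads (67.5 to 5817), 1.7% were lower and 3.75% higher in the authors' deposited table. The share of mitosis genes that passed in the lower direction is therefore near the background. At an unadjusted p under 0.05, 6 of the 54 were lower and 1 was higher (11.1% and 1.85%) in the authors' deposited table. The background by that looser rule was 4.8% lower and 7.65% higher over all genes, and 7% and 10.7% over genes within the same range of reads.

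The direction of the small differences was less even than the calls. The log2 fold change was below 0 in 43 of the 54 genes (79.6%) in the authors' deposited table, against 49.8% of all genes and 50% of genes within the same range of reads. Their median log2 fold change was -0.07 (quartiles -0.14 and -0.02) in the authors' deposited table, beside a median of 0.001 over all genes. The values ran from -0.43 in NUF2 to 0.15 in CDC25B in the authors' deposited table. The deposited fold change lies 0.0516 above the plain log2 ratio of the average reads. On plain ratios of average reads 47 of the 54 genes (87%) were below 1, against 59.6% of all genes, and on ratios of average TPM 49 (90.7%) against 63.8%. Among genes within the same range of reads these shares were 64% and 69%. The 54 genes summed to 2859 TPM in sgControl and 2708 TPM in sgMETTL13 in the authors' deposited table. Bulk RNA cannot tell fewer cells in mitosis from less of these transcripts per cell.

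**Figure D1:**
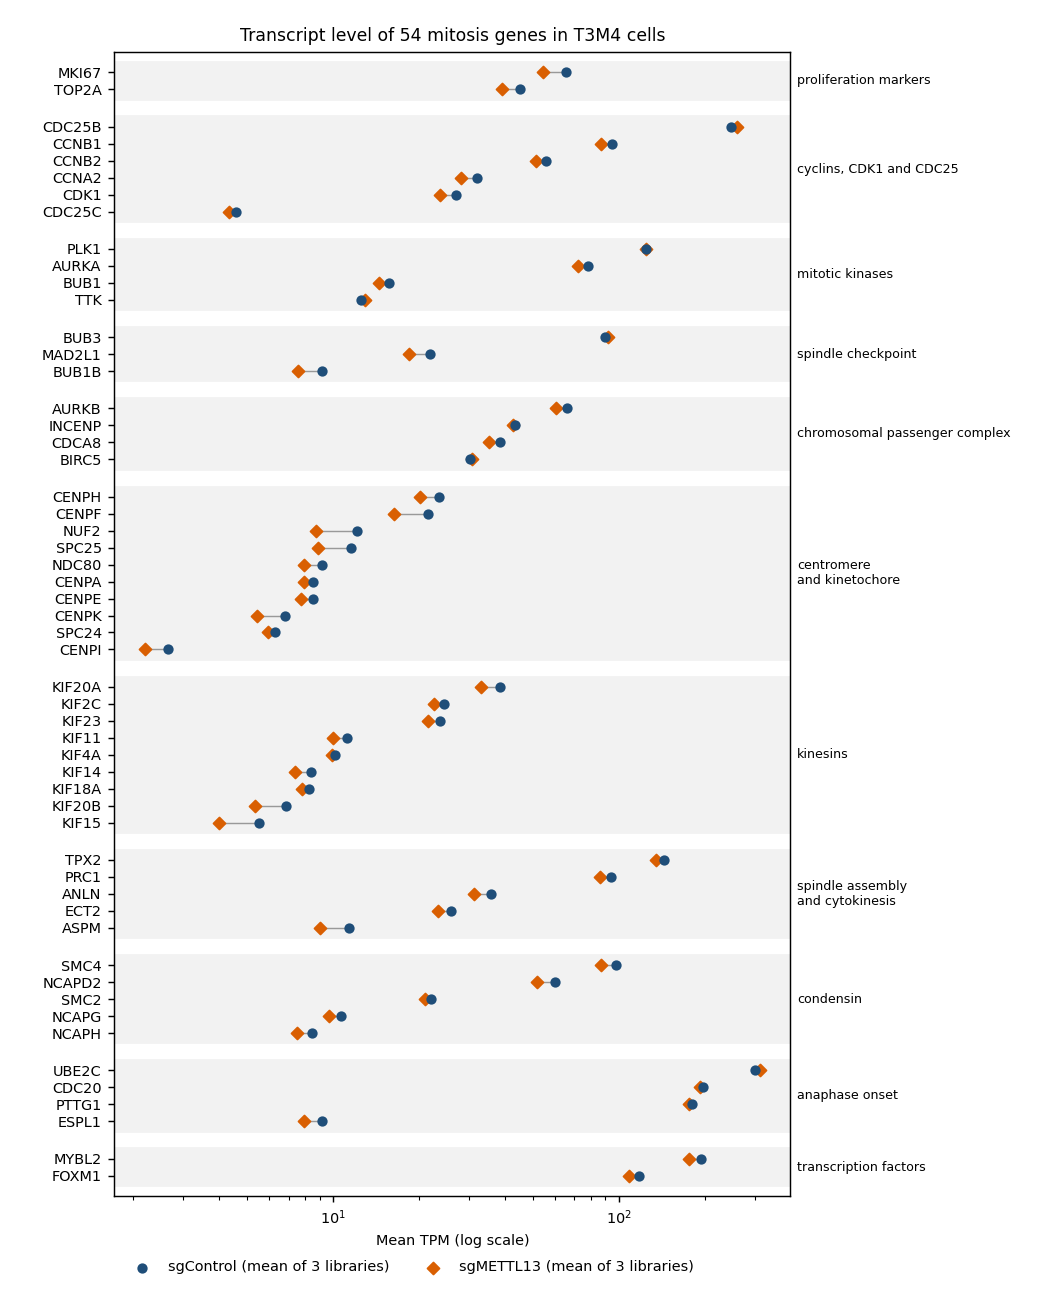
Mean TPM (log axis) of each of the 54 genes in sgControl (circles) and sgMETTL13 (diamonds), each point the authors' average over 3 libraries with no error bar, grouped by role. Levels run from 2.65 TPM for CENPI to 299.9 TPM for UBE2C in sgControl, and most pairs of points lie close together.

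Precision was enough to bound most of these genes. Each gene's implied standard error, the deposited fold change over the normal score that matches its p, gives an implied 95% interval. That interval lay within 1.5-fold in either direction in 49 of the 54 genes, and within 1.3-fold in 37. It included 0 in 47 genes. The smallest log2 fold change that would have passed at each gene's implied standard error ran from 0.17 in FOXM1 to 0.76 in SPC24, with a median of 0.29. Differences of the size seen in most of these genes were therefore below what these 3 libraries a group could detect.

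**Figure D2:**
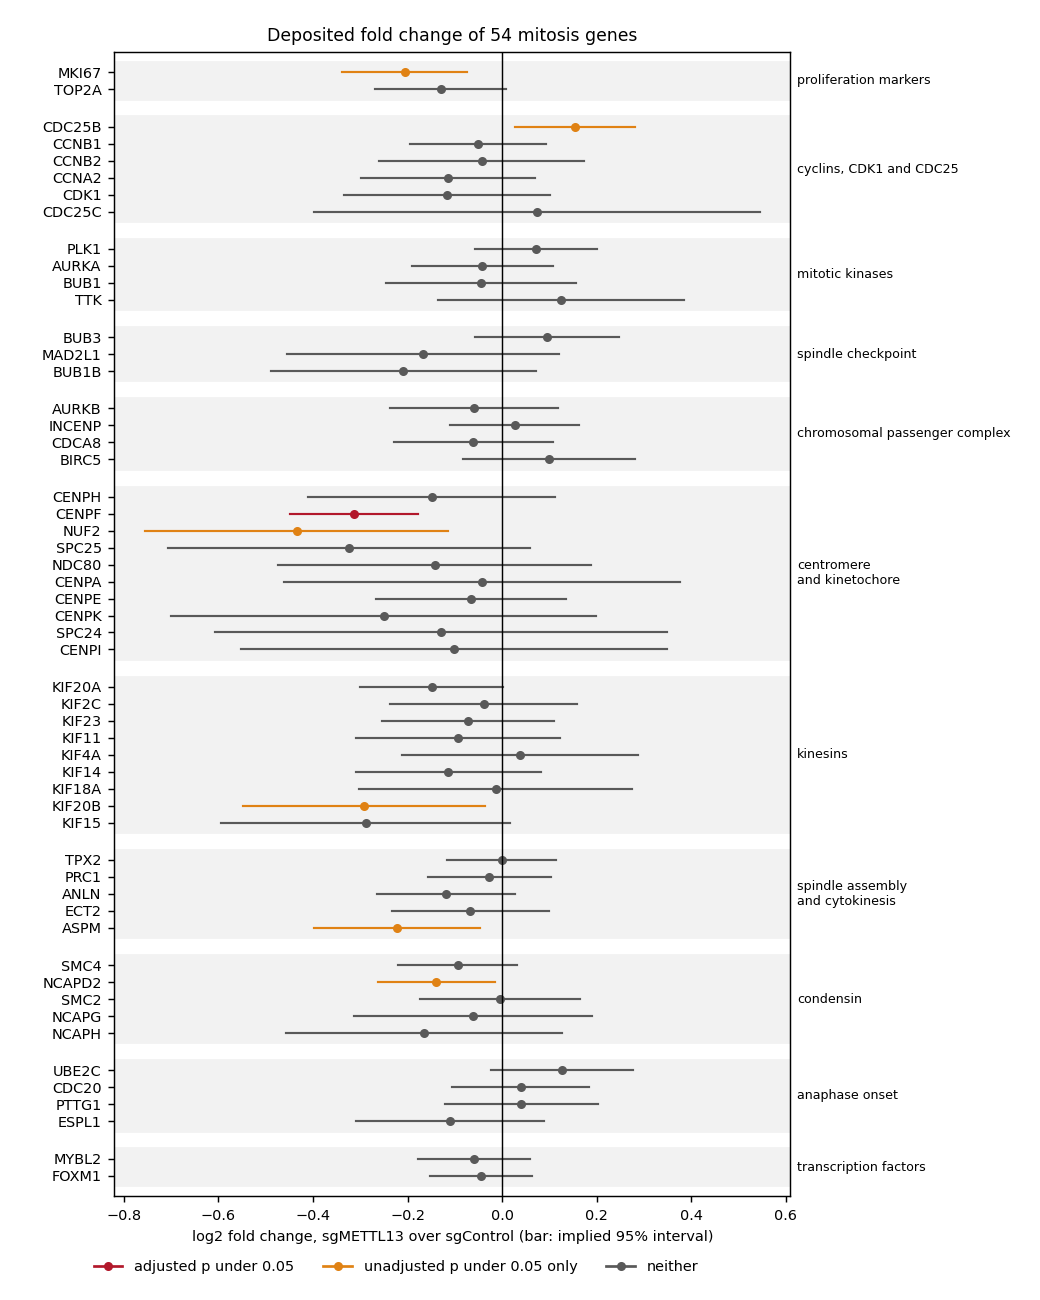
Deposited log2 fold change of sgMETTL13 over sgControl for each of the 54 genes (points) with its implied 95% interval (bars), grouped by role and coloured by the p that it passed. CENPF, at -0.31, is the single gene with an adjusted p under 0.05, and 47 of the intervals include 0.

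The kinetochore held the only call and the 3 lowest values of the 54. CENPF, a large coiled-coil protein that accumulates in G2 and binds the outer kinetochore, went from 21.5 to 16.4 TPM and from 1650 to 1281 reads in the authors' deposited table. It fell by 0.31 on the log2 scale (0.804-fold, implied 95% interval -0.45 to -0.18), with an adjusted p of 0.000464 in the authors' deposited table. The gene (Entrez 1063) lies on chromosome 1 (GRCh38), plus strand, between 214603195 and 214664588. Its exons overlap 0% of another gene's exon bases in GENCODE 29, and its average reads times 3 gave whole numbers (tolerance 0.005). All 10 centromere and kinetochore genes had a log2 fold change below 0 in the authors' deposited table, with a median of -0.15, and 9 of them did not pass.

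NUF2 and its partners form the NDC80 complex, the main microtubule contact of the kinetochore. NUF2 was at 12.1 TPM in sgControl and 8.70 TPM in sgMETTL13, with a log2 fold change of -0.43 (implied 95% interval -0.76 to -0.11) and an adjusted p of 0.131 in the authors' deposited table. A log2 change of 0.51 would have been needed in NUF2, which rests on 180.3 and 128.7 reads in the authors' deposited table. SPC25 was at 11.6 and 8.88 TPM (-0.32), NDC80 itself at 9.19 and 7.92 TPM (-0.14), and SPC24 at 6.27 and 5.93 TPM (-0.13) in the authors' deposited table. The 4 subunits thus lay between 6.27 and 12.1 TPM in sgControl, and their log2 fold changes were all below 0, each without passing the test. The average reads of SPC24 and SPC25 times 3 were not whole, as where reads are divided between genes, so their values are less certain.

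The remaining kinetochore genes were CENPA, the centromeric histone H3 variant, CENPE, the kinetochore motor, and CENPH, CENPI and CENPK of the inner kinetochore. CENPA was at 8.55 TPM in sgControl and 7.91 TPM in sgMETTL13 in the authors' deposited table (log2 fold change -0.04), and CENPE at 8.50 and 7.72 TPM (-0.07). CENPH was the most abundant of the inner kinetochore genes, with 23.6 and 20.2 TPM (-0.15) in the authors' deposited table. CENPK had 6.78 and 5.43 TPM (-0.25), and CENPI, the least abundant of the 54, 2.65 and 2.20 TPM (-0.10), in the authors' deposited table. The implied interval of CENPK ran from -0.70 to 0.20, and that of CENPI from -0.55 to 0.35. The average reads of CENPI times 3 were not whole, so its value is also less certain.

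The 2 genes most used to mark dividing cells lay below 0. MKI67, which encodes the Ki-67 coat protein of mitotic chromosomes, went from 65.6 TPM in sgControl to 54.4 TPM in sgMETTL13 in the authors' deposited table. Its log2 fold change was -0.21 (implied 95% interval -0.34 to -0.07), with an adjusted p of 0.0551 in the authors' deposited table, just outside the threshold. With the adjustment made over the more abundant genes alone (205 mean reads or more), MKI67 passed (adjusted p = 0.0296). TOP2A, the topoisomerase that untangles sister chromatids, was at 45.1 and 39.2 TPM (-0.13, adjusted p 0.460) in the authors' deposited table.

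The kinesins, motors that move and shape the spindle, were below 0 in 8 of 9 in the authors' deposited table, with a median log2 fold change of -0.09 and 0 calls. KIF20B, a motor of late cytokinesis, was at 6.85 and 5.33 TPM in sgControl and sgMETTL13, with a log2 fold change of -0.29 (implied 95% interval -0.55 to -0.04) and an adjusted p of 0.269 in the authors' deposited table. KIF15, which helps keep spindle poles apart, had 5.51 and 4.00 TPM (-0.29, adjusted p 0.460) in the authors' deposited table. KIF11, the main motor that separates the poles, was at 11.3 and 10.0 TPM (-0.09) in the authors' deposited table. The most abundant kinesin was KIF20A, needed for cytokinesis, with 38.6 and 32.9 TPM (-0.15) in the authors' deposited table. KIF2C, KIF14, KIF18A and KIF23 lay between -0.11 and -0.01, and KIF4A, a chromosome-arm motor, at 0.04 in the authors' deposited table. KIF4A was below 1 on the plain ratio of reads.

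Spindle assembly and cytokinesis genes lay at or below 0. ASPM, which focuses the spindle poles, was at 11.4 and 9.04 TPM, a log2 fold change of -0.22 (implied 95% interval -0.40 to -0.05) with an adjusted p of 0.182 in the authors' deposited table. TPX2, the spindle activator of AURKA and the most abundant of this role, had 143.7 and 135.2 TPM in the authors' deposited table, and its implied 95% interval ran from -0.12 to 0.11 around a log2 fold change of -0.001. PRC1, which bundles midzone microtubules, ECT2, the activator of RhoA at the furrow, and ANLN, the furrow scaffold, stood at -0.03, -0.07 and -0.12 on that scale by the authors' deposited table. Of the annotated exon bases of PRC1, 57.6% overlap another gene on the same strand, which makes its count uncertain.

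Condensin compacts chromosomes as a ring of SMC2 and SMC4 closed by NCAPH, NCAPD2 and NCAPG. The subunits differed widely in level, with SMC4 at 98.0, NCAPD2 at 60.0, SMC2 at 22.1, NCAPG at 10.7 and NCAPH at 8.48 TPM in sgControl in the authors' deposited table. In sgMETTL13 the same order held, at 86.9, 51.7, 21.0, 9.72 and 7.50 TPM in the authors' deposited table. The interval of NCAPD2 lay below 0, around a log2 fold change of -0.14 (implied 95% interval -0.26 to -0.02) and an adjusted p of 0.287 in the authors' deposited table. SMC2 was at -0.004 and SMC4 at -0.09 in the authors' deposited table. In SMC4 and NCAPG 25.6% and 33.1% of the exon bases overlap a gene on the opposite strand, and no source used here says whether reads were counted by strand. Such an overlap was over 1% in 15 of the 54 genes, and the next largest shares were 15.9% in FOXM1 and 12.5% in PLK1.

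Of the cyclins, CDK1 and the CDC25 phosphatases, which drive mitotic entry, 0 passed. CDK1 was at 27.1 TPM in sgControl and 23.7 TPM in sgMETTL13 (log2 fold change -0.12) in the authors' deposited table, and its partner CCNB1 at 94.6 and 86.8 TPM (-0.05). CCNB2 had 55.7 and 51.5 TPM (-0.04), and CCNA2, the cyclin of S phase and G2, 32.0 and 28.1 TPM (-0.11) in the authors' deposited table. These 4 genes thus lay slightly below 0 without passing. CDC25B, a phosphatase that starts CDK1 activation, was at 247.7 and 259.3 TPM and had the highest log2 fold change of the 54, 0.15 (implied 95% interval 0.03 to 0.28), with an adjusted p of 0.213 in the authors' deposited table. Its relative CDC25C was rare, with 4.59 and 4.35 TPM and an implied 95% interval from -0.40 to 0.54 in the authors' deposited table.

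Mitotic kinases lay on both sides of 0, and 0 of 4 passed. PLK1, which acts from mitotic entry to cytokinesis, was at 125.2 TPM in sgControl and 124.9 TPM in sgMETTL13 in the authors' deposited table. Its log2 fold change was 0.07 on the deposited scale (implied 95% interval -0.06 to 0.20), and -0.003 as a ratio of TPM. AURKA, the centrosome and spindle pole kinase, had 78.1 and 72.2 TPM (-0.04) in the authors' deposited table. The checkpoint kinases TTK and BUB1 had 12.5 and 13.0 TPM (0.12) and 15.7 and 14.5 TPM (-0.05) in the authors' deposited table. Checkpoint effectors were BUB3 at 89.5 and 91.8 TPM (0.10), MAD2L1 at 21.8 and 18.5 TPM (-0.17) and BUB1B at 9.20 and 7.57 TPM (-0.21) in the authors' deposited table. The interval of BUB1B ran from -0.49 to 0.07, and 10.2% of its exon bases overlap another gene on the same strand.

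The chromosomal passenger complex corrects wrong attachments and sits at the cleavage site. Its kinase AURKB was at 65.8 and 60.3 TPM (log2 fold change -0.06), and its scaffold INCENP at 43.5 and 42.7 TPM (0.03) in the authors' deposited table. The targeting subunits were CDCA8 at 38.3 and 35.1 TPM (-0.06) and BIRC5, or survivin, at 30.2 and 30.7 TPM (0.10) in the authors' deposited table. These 4 subunits lay within a narrow range of 30.2 to 65.8 TPM in sgControl, and 2 of the 4 log2 fold changes were below 0. INCENP was below 1 on plain ratios of reads and of TPM.

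Genes of anaphase onset had the highest median level of the roles. UBE2C, the ubiquitin-conjugating enzyme of the anaphase-promoting complex, was at 299.9 TPM in sgControl and 311.8 TPM in sgMETTL13 (log2 fold change 0.13, adjusted p 0.565) in the authors' deposited table. CDC20, the activator of that complex, was at 197.5 and 192.7 TPM (0.04), and PTTG1, or securin, at 180.5 and 176.8 TPM (0.04) in the authors' deposited table. On plain ratios of reads or TPM both CDC20 and PTTG1 were below 1. ESPL1, the separase that cuts cohesin, was much rarer, with 9.18 and 7.94 TPM (-0.11) in the authors' deposited table. The median log2 fold change of these 4 genes was 0.04, beside -0.15 for the 10 centromere and kinetochore genes, a difference that was not tested. As plain ratios of reads these medians were -0.01 and -0.20, and as ratios of TPM -0.03 and -0.20. Adjusted for GC content and transcript length they were -0.03 and -0.17. The 2 roles also differed in median GC content (53.5% and 40.5%) and in median reads (1395 and 119).

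The transcription factors of the programme were abundant, and neither passed. MYBL2 was at 194.1 and 177.1 TPM, a log2 fold change of -0.06 (implied 95% interval -0.18 to 0.06), in the authors' deposited table. FOXM1 was at 118.1 and 108.7 TPM, a log2 fold change of -0.04 (implied 95% interval -0.15 to 0.06), in the authors' deposited table. A fall of 0.19 in MYBL2, or of 0.17 in FOXM1, on the log2 scale would have passed the test. Adjusted for GC content and transcript length, MYBL2 was at -0.15 (adjusted p 0.249) and FOXM1 at -0.09 (adjusted p 0.658), both farther from 0 than as deposited and neither called.

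**Figure D3:**
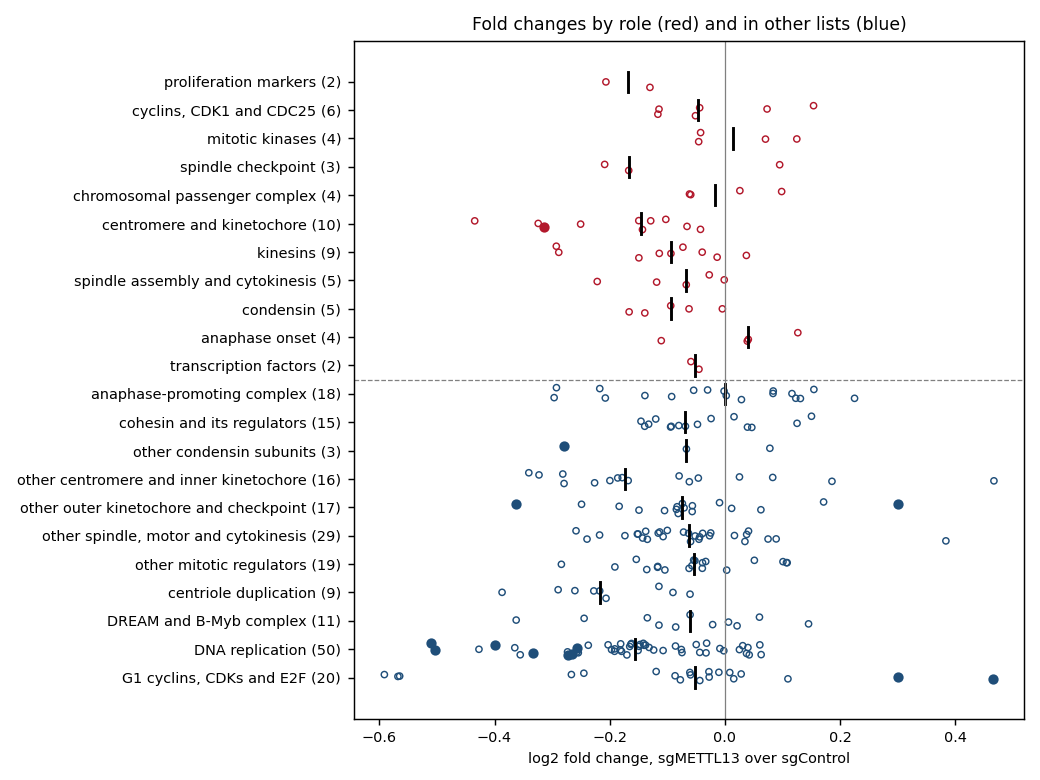
Deposited log2 fold change of single genes by role for the 54 mitosis genes (red) and in other lists (blue), with the number of genes in brackets; filled points have an adjusted p under 0.05 and black bars are medians. The 10 centromere and kinetochore genes all lie below 0, and the DNA replication list holds 7 filled points.

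Calls were as few among other genes of mitosis. In 9 lists of 137 further mitosis genes, all measured, 2 were lower and 1 higher in the authors' deposited table, beside the backgrounds of 1.08% and 2.73%. The median log2 fold change was -0.07 and 98 of the 137 (71.5%) lay below 0 in the authors' deposited table. At an unadjusted p under 0.05, 8 were lower (5.84%) and 6 higher (4.38%) in the authors' deposited table, beside 4.8% and 7.65% of all genes. KNTC1, the Rod subunit that brings dynein to kinetochores, went from 501.7 to 376.3 reads and fell by 0.36 (log2; adjusted p 0.0106) in the authors' deposited table. NCAPD3, a subunit of condensin II, went from 20.6 to 16.1 TPM and fell by 0.28 (adjusted p 0.0285) in the authors' deposited table. MAD1L1, the kinetochore anchor of MAD2L1, rose from 92.4 to 109.8 TPM, by 0.30 on the log2 scale (adjusted p 0.00234), in the authors' deposited table. With a trend in GC content and length removed, KNTC1 was at -0.31 (adjusted p 0.0653), NCAPD3 at -0.26 (0.0673) and MAD1L1 at 0.20 (0.129). All 3 kept their direction without passing, and the values of KNTC1 and NCAPD3 moved little.

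By list, 0 of 18 anaphase-promoting complex genes, 0 of 15 cohesin genes, 0 of 16 further centromere genes, 0 of 29 further spindle and cytokinesis genes, 0 of 19 further regulators, 0 of 9 centriole duplication genes and 0 of 11 genes of the DREAM and B-Myb complex were called in the authors' deposited table. At an unadjusted p under 0.05 the anaphase-promoting complex had 2 lower and 2 higher genes (11.1% each), and cohesin 0, in the authors' deposited table. By the same rule 2 spindle and cytokinesis genes (6.9%), 1 regulator (5.26%) and 1 centriole gene (11.1%) were lower, with 0 higher in these lists. Over all genes 4.8% were lower and 7.65% higher by that rule. The 2 centromere genes (12.5%) and the 1 gene of the DREAM and B-Myb complex (9.09%) with such a p were all higher. They are named here after their values were seen. CENPW, of the inner kinetochore, had 10.4 TPM in sgControl and 13.7 TPM in sgMETTL13 (0.47, adjusted p 0.222) in the authors' deposited table, the highest log2 fold change of the 137. CENPB, which binds centromeric repeats, was at 0.19 (adjusted p 0.0927) and E2F4, a repressor in DREAM, at 0.15 (adjusted p 0.288) in the authors' deposited table. All 9 centriole genes lay below 0, with a median of -0.22, whereas the anaphase-promoting complex genes had a median of 0.0005 in the authors' deposited table.

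DNA replication genes, which peak earlier in the cycle, are given for comparison. Of 50 genes 7 were lower (14%) and 0 higher in the authors' deposited table, and the median was -0.16 on the log2 scale. The largest of these falls were CLSPN, the adaptor of the replication checkpoint, and MCM10, a replication factor. They fell by 0.51 and 0.50 (log2) according to the authors' deposited table. These 7 calls stand beside 1 of 54 for the mitosis genes, and the difference between the 2 lists was not tested.

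**Figure D4:**
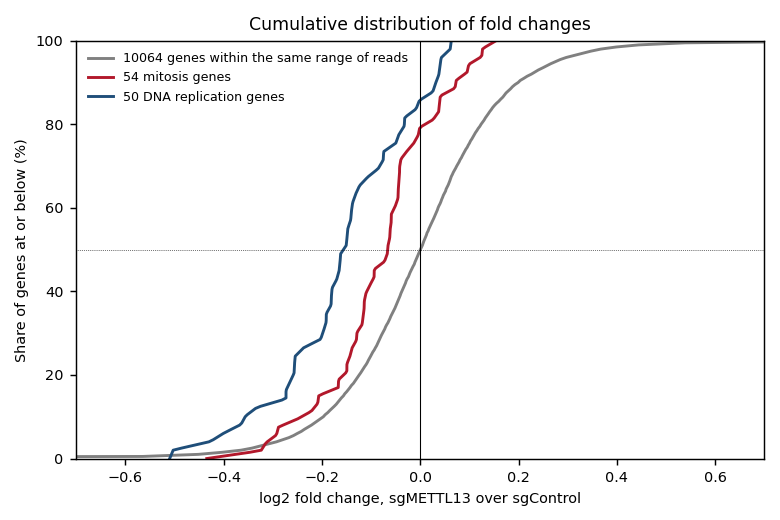
Cumulative share of genes (vertical axis, percent) at or below a given deposited log2 fold change (horizontal axis) for the 54 mitosis genes, 50 DNA replication genes and the 10064 genes within the same range of mean reads. The curves of the mitosis and replication genes cross 50% at -0.07 and -0.16, left of the third curve.

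Base composition and transcript level moved with these values. Over the 54 genes the deposited log2 fold change correlated with the GC content of the transcript (Spearman 0.44) and with its length (Spearman -0.21). It also correlated with TPM in sgControl (Spearman 0.45). Over genes within the same range of reads, where a transcript was annotated, the same coefficients were 0.33, -0.24 and 0.27. Genes are not independent replicates, and all points share the same libraries. The median GC content was 42.9% in the 54 genes and 48.5% in genes within the same range of reads. The 27 genes with the longer transcripts (3572 bases or more) had a median log2 fold change of -0.09 and the 27 shorter ones -0.06, beside -0.03 and 0.03 for all genes within that range of reads split at that length. With the trend in both properties removed the order of the members turned round, with -0.05 for the longer and -0.09 for the shorter. Over all 54 genes the median was then -0.07 and 43 were below 0, although 8 genes changed sign. CENPF stayed called with the trend removed, at -0.25 (adjusted p 0.0147), and MKI67 was at -0.17 (adjusted p 0.240).

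**Figure D5:**
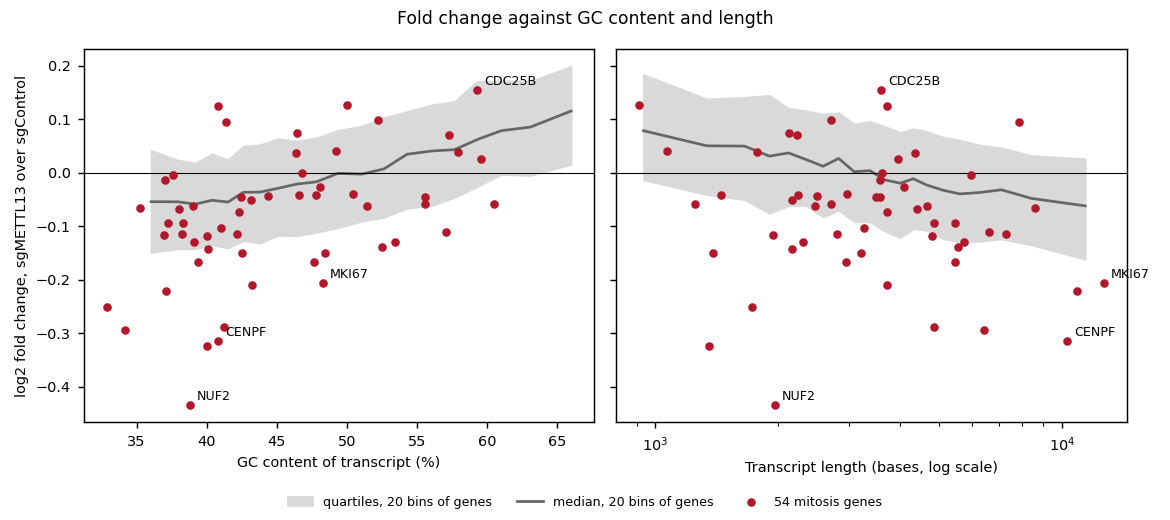
Deposited log2 fold change of the 54 mitosis genes (points) against GC content in percent (left) and transcript length in bases on a log axis (right), with the median (line) and quartiles (grey) of genes within the same range of reads in 20 bins. Points tend to lie below the line, and the labelled genes NUF2 and CENPF, both well below it, have a GC content of 38.8% and 40.8%.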

How the data were processed

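RNA was extracted with TRIzol and libraries were made by a sequencing company, per the labels' protocols. The submitters' processing notes name RSEM 1.2.12, Bowtie2 2.2.5, HISAT2 2.0.4 and DESeq2, with the builds hg38 and GRCh38.p12 and no role for any of them. Per the file headers, the authors deposited average TPM, average FPKM and average read counts per group, with a log2 fold change, a p-value and a q-value of sgMETTL13 over sgControl. The deposited read counts are estimated counts (expected counts): 21.4% of genes have averages that are not whole reads divided by 3 (tolerance 0.005), 8 of the 54 members among them. These members are AURKA, BUB1B, CENPI, SPC24, SPC25, KIF4A, KIF14 and ECT2. FPKM values deposited by the authors were not used. TPM values of the authors are per length and were used for levels.

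The planned edgeR test needed counts per library, so the deposited comparison is the result. The depth of single libraries is unknown. A Benjamini-Hochberg adjustment gave the deposited q-value to within 1.20%, and it is called the adjusted p. Implied standard errors assume a normal test. GC content and length are of the longest basic transcript in GENCODE 29, matched by Entrez ID for 97.5% of genes. Their trend was fitted with splines (4 degrees of freedom each, weighted by the inverse of the squared implied standard error), p recomputed. The steps were tested on simulated data. The 54 members and all lists were chosen with earlier results of these data known. Any member could be named; of other lists, up to 4 called genes each were allowed. Alternatives were other thresholds, a read filter, plain ratios (pseudocounts 0.1 and 1 for TPM), centring and the trend. Work was done in Python 3.11.15 with scipy 1.17.1, pandas 2.3.3, numpy 2.4.6, matplotlib 3.10.9 and patsy 1.0.2.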

Additional observations from a re-analysis of the deposited data

How the results depend on the processing

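CENPF and METTL13 kept their direction under every alternative run. They kept their call under the other thresholds, the recomputed adjustment, the read filter and the trend. The plain ratios and centring gave no p, so no call could be lost under them. The count of lower mitosis genes was 2 in place of 1 at an adjusted p under 0.1 and when only the more abundant genes were kept. The 137 further mitosis genes gave 0 lower at 0.01, 4 lower and 2 higher at 0.1, 4 lower with the read filter, and 0 lower and 0 higher once the trend in GC and length was taken out, although KNTC1 (-0.31), NCAPD3 (-0.26) and MAD1L1 (0.20) kept their direction. Over all genes 104 were lower at 0.01 and 269 at 0.1, and 266 were higher with the trend removed. The median log2 fold change of the 54 genes was -0.12 as a ratio of average reads, -0.13 as a ratio of TPM with either pseudocount, and -0.077 when centred. Genes that changed sign, and whose calls were absent throughout, were CDC25C (TPM -0.076 and -0.063 with pseudocounts 0.1 and 1), PLK1 (TPM -0.0031 with both, trend -0.0038), INCENP (reads -0.025, TPM -0.027 with both, trend -0.040), KIF4A (reads -0.015, TPM -0.036 and -0.033), CDC20 (reads -0.013, TPM -0.035 with both, trend -0.049) and PTTG1 (reads -0.011, TPM -0.030 with both, trend -0.012). With the trend removed CENPE (0.010), KIF18A (0.024), TPX2 (0.0067) and SMC2 (0.052) were above 0. The cause was not tested. No paired analysis was possible because the table holds averages per group and no value per library, which also left replicates, other count models and their normalizations not run.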
